A study of Homo sapiens with 2 samples.

Results

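Olfactory receptor genes encode the odour-binding G protein-coupled receptors of the nose and form the largest gene family of mammals, with much of the human family on chromosome 11. The genes described here were the RefSeq (GRCh38.p14) protein-coding genes of chromosome 11 with a symbol built as OR, digits, letters, digits, such as OR5A1. The rule found 171 genes, 168 of which had a position on the assembled chromosome, among 19821 placed protein-coding genes. The other 3, OR8U8, OR8U9 and OR9G9, stood in the gene table outside the rows of the assembled chromosome 11, so their listed positions were not used and they have no value below. Whether these genes were silent in the cells was not measured, since the files hold no expression or chromatin state.

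The study used ChIP-seq to map TCF19, a nuclear protein whose PHD finger can bind histone tails, in the human endometrial cancer cell line Ishikawa. Cells of 1 population were infected with a lentivirus that overexpressed TCF19 and those of the other with a control lentivirus (labelled negative control); both were selected with puromycin and immunoprecipitated with the same TCF19 antibody. Each condition had 1 library and 1 list of called peaks on hg38, so no test of the condition was possible, and nothing in the labels says whether the cells were a clone or a pool. The list of the overexpressing library held 112212 summits, 5079 of them on chromosome 11, and that of the control library 170334, with 7808 on chromosome 11. TCF19 itself had 3 summits inside the gene in the overexpressing library and 0 in the control library. Whether reads of the introduced TCF19 sequence were placed there was not tested. The lowest pileup called at the genome-average background was 6 reads in both libraries. Intervals are 95% intervals for counting error only, because reads may hold PCR copies and summits are picked as local maxima.

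In an olfactory neuron a single receptor gene is transcribed while the rest of the family lies in compact heterochromatin, and the protein signals through the G protein subunit encoded by GNAL, adenylyl cyclase 3 and a cyclic nucleotide-gated channel. Outside the nose most of these genes are not transcribed. Families numbered 51 and above are called class I, or fish-like, receptors, and the others class II. The coding sequence is usually a single exon, so many of the genes are short. The 168 placed genes comprised 55 class I and 113 class II genes, with a median length of 1103 bp (912 to 165335 bp), and 92 were at most 2000 bp long. Genes within 500 kb of each other were joined into a cluster, which gave 11 clusters covering 5.862 Mb, or 4.34% of the chromosome. All 55 class I genes lay in 1 cluster at chr11:4367263-6200186, which also holds the beta-globin genes. The largest class II clusters held 46 genes at chr11:55343201-56989843 and 22 genes at chr11:123753580-124571374.

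The promoters of these genes are poor in G+C, and 4 are shown because their genes had a summit within 1000 bp of the annotated start. Each line gives 300 bases of GRCh38.p14 from RefSeq, 5′ to 3′, from 250 bases before the gene start to 50 after it. Capitals mark TAATTA, a core sequence read by homeodomain proteins such as LHX2, which binds olfactory receptor promoters in mouse. The OR52W1 window (chr11:6198974-6199273, plus strand) had 47.0% G+C, the OR52B6 window (chr11:5580627-5580926, plus strand) 45%, and the OR51S1 window (chr11:4849159-4849458, minus strand) 43.3% and no TAATTA. The OR5M10 window (chr11:56577672-56577971, minus strand) had 35.0% and no TAATTA. The median over the 135 receptor genes with a window was 37.0%. No called summit fell inside any of the 4 windows; the nearest, at OR51S1 in the control library, was 134 bp away.
OR52W1: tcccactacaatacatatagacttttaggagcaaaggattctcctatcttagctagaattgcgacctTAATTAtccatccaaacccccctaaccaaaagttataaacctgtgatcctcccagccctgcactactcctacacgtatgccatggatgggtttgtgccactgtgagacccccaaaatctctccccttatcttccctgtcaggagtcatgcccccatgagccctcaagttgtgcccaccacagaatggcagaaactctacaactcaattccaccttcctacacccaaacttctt
OR52B6: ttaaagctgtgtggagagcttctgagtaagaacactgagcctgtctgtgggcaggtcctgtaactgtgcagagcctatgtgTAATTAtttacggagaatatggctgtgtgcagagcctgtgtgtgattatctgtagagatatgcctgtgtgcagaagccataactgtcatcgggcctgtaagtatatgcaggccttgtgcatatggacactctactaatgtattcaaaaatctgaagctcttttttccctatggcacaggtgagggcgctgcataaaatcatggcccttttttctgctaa
OR51S1: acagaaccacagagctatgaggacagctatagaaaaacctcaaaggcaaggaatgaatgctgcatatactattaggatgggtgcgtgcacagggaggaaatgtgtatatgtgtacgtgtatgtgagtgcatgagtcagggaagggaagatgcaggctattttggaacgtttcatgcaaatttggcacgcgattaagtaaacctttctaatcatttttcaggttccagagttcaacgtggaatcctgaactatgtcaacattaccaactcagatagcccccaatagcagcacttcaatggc
OR5M10: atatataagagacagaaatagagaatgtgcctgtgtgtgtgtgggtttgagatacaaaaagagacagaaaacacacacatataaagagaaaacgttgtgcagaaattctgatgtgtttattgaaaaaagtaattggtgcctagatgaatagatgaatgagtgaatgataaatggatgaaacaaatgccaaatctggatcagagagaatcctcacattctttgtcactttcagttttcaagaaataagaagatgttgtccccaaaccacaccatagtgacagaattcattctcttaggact

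Few olfactory receptor genes had a summit within 1000 bp of either end, here called a gene-end summit. There were 4 of 168 in the overexpressing library (2.38%, Wilson interval 0.93 to 5.96) and 10 of 168 in the control library (5.95%, 3.27 to 10.6). Over all placed protein-coding genes, 65.2% had one in the overexpressing library and 54.9% in the control library. A gene-end summit in both libraries was present at 3 of the receptor genes, against 49.1% of all genes. The overexpressing library alone had one at 1 of the 168 receptor genes, against 16.1% of all genes. The control library alone had one at 7 of the 168, against 5.83% of all genes. This control-alone share was near that of all genes, unlike the shares for both libraries and for the overexpressing library alone. Neither library had one at 157 receptor genes. The genes were chosen by symbol and chromosome, and the comparison with sequence between genes was selected on the summits of these same lists, so the counts are a description.

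**Figure D1:**
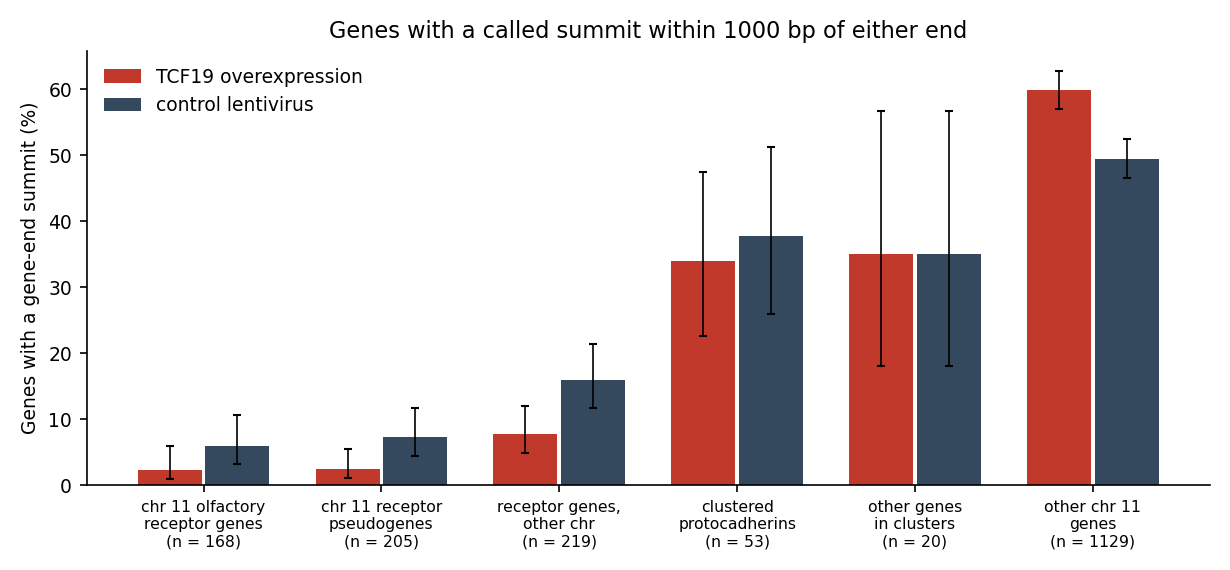
Bars show the percentage of genes with a called summit within 1000 bp of either end, for the overexpressing library (red, left) and the control library (dark, right), with Wilson 95% intervals and the number of genes under each set. The receptor genes of chromosome 11 stand at 2.38% and 5.95%, and the other protein-coding genes of chromosome 11 at 59.9% and 49.5%.

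OR52W1, a class I receptor gene at chr11:6199224-6200186, had a summit in both libraries just inside its start. It stood at 6199580, 356 bp downstream of the annotated start, with 8 reads (exact Poisson interval 3.5 to 15.8) in the overexpressing library, and at 6199561 with 7 reads (2.8 to 14.4) in the control library. The summits lay 19 bp apart and the counting intervals overlapped. OR5AP2, a class II gene on the minus strand at chr11:56641489-56642439, had its summits outside the gene past its downstream end. They had 8 reads (3.5 to 15.8) at 56640698 in the overexpressing library and 8 reads at 56640763 in the control library, 65 bp apart. OR10Q1, a class II gene at chr11:58227882-58228918, had 8 reads (3.5 to 15.8) inside the gene at 58228409 in the overexpressing library and 13 reads (6.9 to 22.2) at 58228245 in the control library, where the authors' fold enrichment of 5.36 was the highest at any receptor gene end. At these 3 genes the intervals of the 2 peak lists overlapped.

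OR10S1 (chr11:123976661-123977781) was the receptor gene with a gene-end summit in the overexpressing library alone. The summit lay inside the gene at 123976871, with 12 reads (6.2 to 21.0) and the authors' fold of 3.73. The nearest summit of the control library was 2059 bp away from it and 1149 bp from an end of OR10S1, just past the 1000 bp limit.

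The 7 genes seen in the control library alone had summits of 8 or 9 reads. OR51D1 (4637360), OR52B6 (5580422) and OR10W1 (58267223) had 9 reads each (4.1 to 17.1), and OR51S1 (4849025), OR4X1 (48264325), OR5M10 (56578379) and OR8B8 (124437672) had 8 reads each (3.5 to 15.8). All 7 stood at the genome-average background of 1.58 reads, and none of their intervals overlapped one in the overexpression list. By position, OR51S1 had its summit 183 bp downstream of the annotated start, OR52B6 455 bp and OR5M10 658 bp upstream of it, and OR8B8 near its downstream end. OR51D1, OR4X1 and OR10W1 had no strand in the promoter table, so their 5′ and 3′ ends were not told apart; the summit was outside OR51D1 and inside OR4X1 and OR10W1. The next gene beyond the 1000 bp limit was OR10AG1 at 1145 bp in the control library, and OR2AT4 at 1367 bp in the overexpressing library; just inside it was OR5AP2 at 791 bp and 726 bp in the overexpression and control libraries.

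Across receptor gene ends there were 14 summits. Their pileups were 8, 8, 8 and 12 reads in the overexpressing library and 7 to 13 reads, with a median of 8, in the control library. On the rest of chromosome 11 the median summit had 13 reads in the overexpressing library and 12 in the control library, and 11.03% and 6.03% of summits reached 20 reads. At receptor gene ends 0 summits did in either library, and the summit of OR10Q1 in the control library, with 13 reads, was the 1 above the median of the rest of the chromosome in its own library. Reads from closely similar receptor genes can be placed on the wrong copy or dropped. How such reads were handled is not given in the sources used here, so values at single receptor genes are uncertain and the part of read placement in the low counts was not tested.

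Receptor gene ends held no more summits per base than the sequence between genes inside the same clusters. The gene-end windows covered 0.572 Mb and held 4 summits in the overexpressing library, or 6.99 per Mb (exact Poisson interval 1.91 to 17.9), and 10 in the control library, or 17.5 per Mb (8.38 to 32.1). Between genes, more than 1000 bp from any gene of the table, the clusters held 12.8 summits per Mb (9.15 to 17.3) in the overexpressing library and 29.6 per Mb (23.9 to 36.1) in the control library, over 3.214 Mb. The ratio of gene ends to between genes was 0.548 (exact interval 0.143 to 1.51) in the overexpressing library and 0.591 (0.275 to 1.14) in the control library. Both intervals include 1, so at this depth no difference from the sequence between genes was detectable. Among summits of at least 4-fold the ratio was 0.0 (0.0 to 0.822) in the overexpressing library, from 0 gene-end summits. In the control library it was 0.0952 (0.0024 to 0.552), from 1. These intervals lay below 1, but they rest on 0 and 1 gene-end summits. The comparison was also selected on these same lists, so the values are a description.

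At the ends of the other 1129 protein-coding genes of chromosome 11 the same ratio, against the sequence between genes on the rest of the chromosome, was 8.39 (7.69 to 9.16) in the overexpressing library and 3.90 (3.58 to 4.24) in the control library. Their ends held 216 summits per Mb in the overexpressing library and 178 in the control library. The density at receptor gene ends was 0.0324 (0.0088 to 0.0832) of that in the overexpressing library and 0.0984 (0.047 to 0.182) in the control library. Sequence between genes was also sparser in the clusters than on the rest of the chromosome, which had 25.7 summits per Mb in the overexpressing library and 45.6 in the control library. The ratio of clusters to the rest between genes was 0.496 (0.354 to 0.677) in the overexpressing library and 0.649 (0.523 to 0.797) in the control library.

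**Figure D2:**
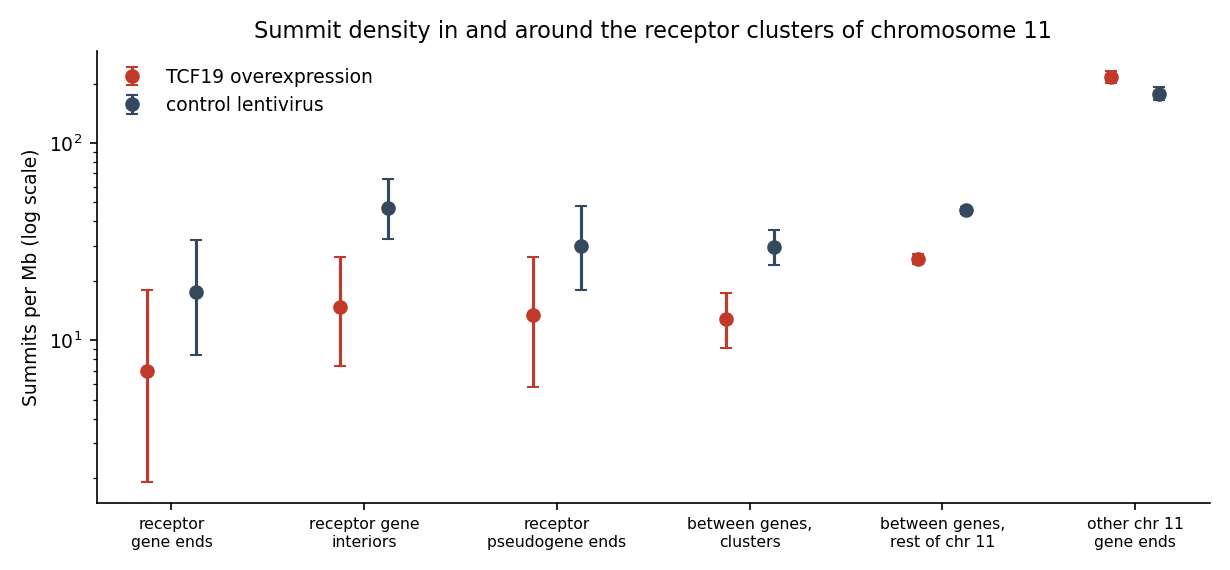
Points show summits per Mb on a log scale for 6 kinds of sequence on chromosome 11, with exact Poisson 95% intervals, for the overexpressing library (red, left) and the control library (dark, right). Receptor gene ends stand at 6.99 and 17.5 per Mb, below or level with the other sequence of the clusters, and the ends of other genes at 216 and 178 per Mb.

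Summits inside receptor genes lay mostly in a few genes with long annotated spans. Past 1000 bp from the ends, gene interiors held 11 summits in the overexpressing library, 14.8 per Mb (7.37 to 26.4), and 35 in the control library, 47.0 per Mb (32.7 to 65.3). The control density was 1.59 times (1.05 to 2.36) that between genes in the clusters, and the overexpression density 1.16 times (0.536 to 2.29). Interior summits occurred in 3 genes in the overexpressing library and 18 in the control library, out of 76 genes long enough to have an interior. OR56A3, of 79760 bp, had 6 and 9 of them in the overexpression and control libraries. OR51B5, of 165335 bp, had 3 and 7, OR8B3 had 2 in each, and OR9Q1, of 157736 bp, had 0 and 4. The spans of OR56A3, OR51B5 and OR9Q1 contain other receptor genes, so a summit inside them is not tied to 1 gene. OR51E1 and OR52K1 were among the genes with 1 interior summit in the control library and 0 in the overexpressing library.

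The shorter receptor genes held all gene-end summits of the overexpressing library: 4 of the 92 genes of at most 2000 bp had one, and 0 of the 76 longer genes, which allows a share of up to 3.95% by the limit of 3 counts (4.81% by the Wilson limit). In the control library 8 of the 92 short genes (8.70%) and 2 of the 76 long genes (2.63%) had one. Other protein-coding genes of at most 2000 bp had one at a share of 44.8% (1120 genes) for the overexpressing library and 42.9% in the control library. By class, 1 of 55 class I genes (1.82%, 0.32 to 9.61) and 3 of 113 class II genes (2.65%, 0.91 to 7.52) had a gene-end summit in the overexpressing library. In the control library these were 4 class I (7.27%) and 6 class II genes (5.31%). The intervals of the classes overlapped in each library.

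Receptor pseudogenes of chromosome 11 also seldom had a gene-end summit. Of 205 such pseudogenes, 5 (2.44%, 1.05 to 5.58) had a gene-end summit in the overexpressing library and 15 (7.32%) in the control library, and all 5 were among the 15. Their ends held 13.4 summits per Mb (5.79 to 26.4) in the overexpressing library and 30.2 (17.9 to 47.7) in the control library, above the 6.99 and 17.5 at receptor gene ends but with overlapping intervals. The pseudogene-end densities were 1.05 times (0.426 to 2.27) and 1.02 times (0.58 to 1.70) the density between genes inside the clusters in the overexpression and control libraries. The pseudogenes were taken from the whole chromosome and some lay outside the clusters. There the sequence between genes held 25.7 and 45.6 summits per Mb in the overexpression and control libraries, so these ratios do not compare like sequence. Olfactory receptor genes of other chromosomes had a gene-end summit at 17 of 219 genes (7.76%, 4.90 to 12.1) in the overexpressing library and at 35 (16.0%, 11.7 to 21.4) in the control library. The clustered protocadherin genes, neuronal adhesion genes in tandem arrays, had one at 18 of 53 (34.0%) and 20 of 53 (37.7%) in the overexpression and control libraries. Among keratin and keratin-associated protein genes, also arranged in arrays, 89 of 149 (59.7%) had one in the overexpressing library and 87 (58.4%) in the control library.

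Distances to the nearest summit differed in the same direction. The median receptor gene lay 24242 bp from the nearest summit in the overexpressing library (measured from its closer end) and 12268 bp in the control library. Other protein-coding genes of chromosome 11 had medians of 492 bp and 1030 bp. Summits inside a gene count here only by their distance to its ends. No summit lay within 10000 bp of either end at 130 of 168 receptor genes (77.4%) in the overexpressing library and 95 (56.5%) in the control library, against 12.1% and 13.2% of the other genes. The most distant in the overexpressing library was OR4C46, at 343452 bp, and in the control library OR4A5, at 78483 bp; both lie in a cluster of 2 genes at chr11:54603069-54707902 that held 0 summits and 1 summit in the overexpression and control libraries.

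**Figure D3:**
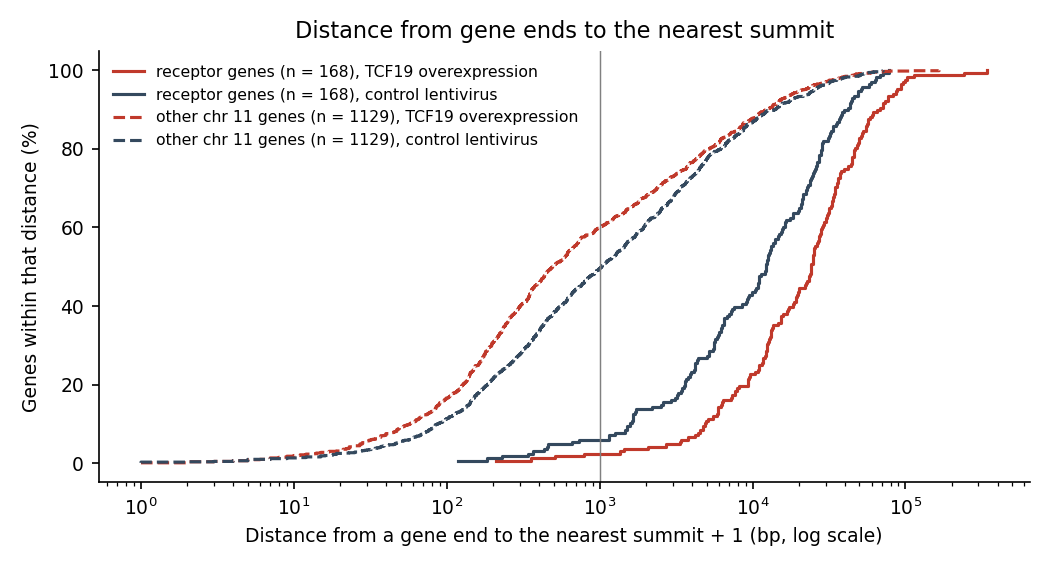
Curves show the cumulative percentage of genes (y axis) by distance from the closer gene end to the nearest summit plus 1 bp (x axis, log scale), for receptor genes (solid) and other protein-coding genes of chromosome 11 (dashed), in the overexpressing library (red) and the control library (dark); the grey line marks 1000 bp. The receptor curves lie to the right of the others, with medians of 24242 and 12268 bp against 492 and 1030 bp.

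Within the clusters, density by distance from the nearest receptor gene was lowest in the first 1000 bp outside the genes in the control library. In the overexpressing library the first 1000 bp was level with 1000 to 2000 bp, which had 3.71 per Mb (0.094 to 20.7), from 1 summit. Inside the genes the density was 13.8 per Mb (7.54 to 23.1) in the overexpressing library and 40.4 (29.0 to 54.8) in the control library. The overexpressing library had 3.58 per Mb (0.091 to 19.9) within 1000 bp, from 1 summit, and 30.2 per Mb (22.1 to 40.5) beyond 20 kb, from 45 summits. The control library had 14.3 per Mb (3.90 to 36.6) within 1000 bp and 45.7 (35.5 to 57.9) beyond 20 kb. The far bins include ends of other genes. With only bases over 1000 bp from any gene, the densities did not rise steadily with distance in either library. In the overexpressing library they were 4.37 per Mb (0.11 to 24.3, from 1 summit) at 1 to 2 kb, 8.31 at 2 to 5 kb, 12.5 at 5 to 10 kb, 18.4 at 10 to 20 kb and 13.0 (6.50 to 23.3) beyond 20 kb. In the control library they were 43.7 (20.9 to 80.3), 15.0, 30.5, 34.3 and 30.8 (20.1 to 45.1), so the 1 to 2 kb bin was the highest.

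Both libraries were sparse across the clusters, and each of the 11 clusters held fewer summits in the overexpressing library than in the control library. Whole clusters held 112 summits in the overexpressing library and 212 in the control library, a ratio of 0.528 (0.416 to 0.667). On the rest of chromosome 11 the ratio was 0.654 (0.631 to 0.678), and the intervals overlapped. With the same number of summits taken from each list over chromosomes 1 to 22 and X, the cluster ratio was 0.667 (0.520 to 0.852). At that setting the ratio over all these chromosomes is 1 by design, so this value does not compare with the 0.654 above. The rest of chromosome 11 was not computed at that setting. The class I cluster held 39 and 70 summits in the overexpression and control libraries, the cluster of 46 class II genes 22 and 47, and the cluster of 22 class II genes 19 and 28. The cluster from OR5AN1 to OR10V1 had 42.3 summits per Mb (23.7 to 69.7) in the overexpressing library and 62.0 (38.8 to 93.8) in the control library. It also holds OSBP and PATL1, an oxysterol-binding protein gene and an mRNA decay factor gene. The median summit of the clusters had 11 reads in the overexpressing library and 10 in the control library.

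**Figure D4:**
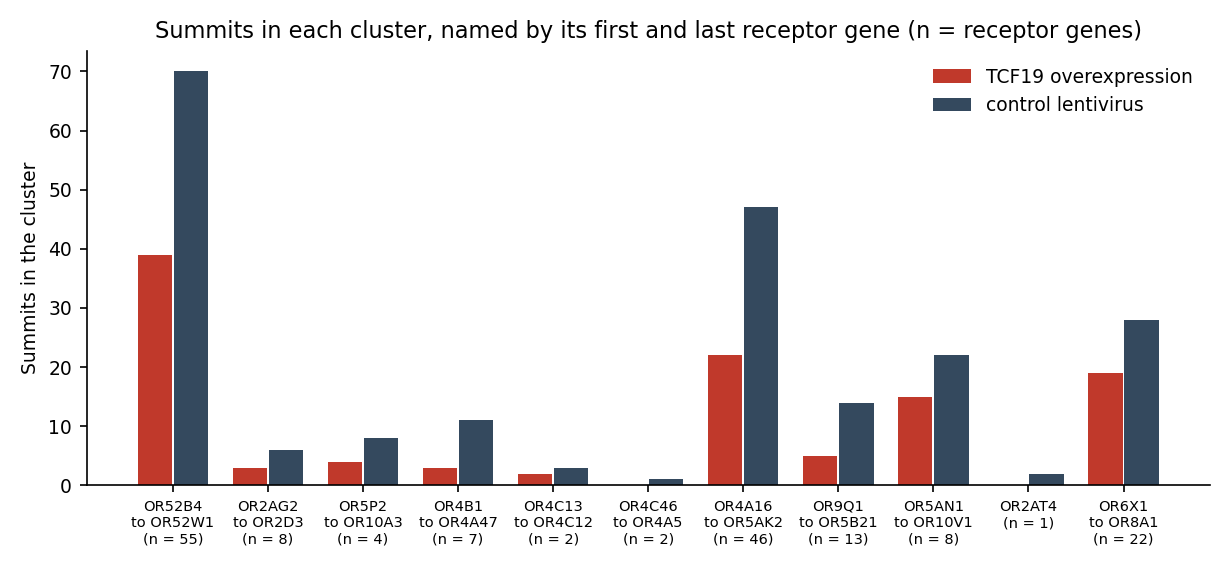
Bars show the number of called summits in each of the 11 clusters, named by first and last receptor gene with the number of receptor genes, in chromosomal order, for the overexpressing library (red, left) and the control library (dark, right). All 11 clusters have fewer summits in the overexpressing library, from 39 against 70 in the class I cluster to 0 against 1 in the cluster from OR4C46 to OR4A5.

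Most cluster peaks of the overexpressing library had a counterpart in the control list. Of its 100 intervals with a summit in a cluster, 79 (79.0%, Wilson interval 70.02 to 85.8) overlapped a control interval, and 81 of 200 control intervals (40.5%, 33.9 to 47.4) overlapped an overexpression interval. On the rest of chromosome 11 these shares were 65.4% (64.0 to 66.7) and 41.6% (40.5 to 42.8). At 48 pairs of cluster summits within 100 bp of each other, the pileup over the genome average had a median log2 ratio of overexpression to control of 0.11 (exact order-statistic interval -0.02 to 0.30), higher in the overexpressing library at 27 pairs and lower at 21. The interval includes 0. On the rest of chromosome 11 the median over 1732 pairs was 0.05 (0.02 to 0.08).

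The highest cluster summits were not at receptor gene ends. By the authors' fold, used within each list, the first in the overexpressing library stood at 4723167 inside MMP26, a matrix metalloproteinase gene, with 25 reads (16.2 to 36.9) and 8.39-fold, 25314 bp from OR51E2; the control library had 13 reads 5 bp away. In the control library the first stood between genes at 56845230, 96533 bp from OR9G4, with 24 reads (15.4 to 35.7) and 7.99-fold, and the overexpressing library had 22 reads (13.8 to 33.3) at 56845456. Inside OR8B3 both libraries had a summit of 17 reads (9.9 to 27.2), 74 bp apart and more than 1000 bp from the gene's ends. Inside OR51B5 the control library had 18 reads (10.7 to 28.4) at 5461178 and the overexpressing library 17 reads at 5461221. These summits were picked for their rank after their values were seen.

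Other protein-coding genes within the same clusters stood at higher shares than the receptor genes. They numbered 20, and 7 had a gene-end summit in each library (35.0%, 18.1 to 56.7), 6 of them in both. PATL1 had 16 reads (9.1 to 26.0) in the overexpressing library and 13 (6.9 to 22.2) in the control library, and OSBP 15 (8.4 to 24.7) and 6 (2.2 to 13.1). The ubiquitin ligase genes TRIM21, TRIM68 and TRIM6 had 7 to 9 reads in either library, and TRIM6 shares its summits with the readthrough gene TRIM6-TRIM34. VWA5A had one in the overexpressing library alone (11 reads, 5.5 to 19.7). The globin genes HBB, HBD, HBG1, HBG2 and HBE1, which are used in red blood cells, had 0 gene-end summits in both libraries, as did TRIM5, TRIM22 and TRIM34. The ends of these 20 genes held 10.5 times (4.70 to 21.3) the density between genes of the clusters in the overexpressing library and 3.17 times (1.24 to 6.80) in the control library.

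Genes that work with the receptors in olfactory neurons, all outside the clusters, had a gene-end summit about as often as protein-coding genes in general. Of 18 listed, 13 had one in the overexpressing library and 9 in the control library, all 9 of them in both, beside 65.2% and 54.9% of all placed protein-coding genes. GNAL, the G protein subunit, had 11 reads (5.5 to 19.7) in the overexpressing library and 17 (9.9 to 27.2) in the control library. Of the transduction channels, CNGB1 had 15 reads in each, and ANO2 17 and 21 in the overexpression and control libraries. CNGA4, on chromosome 11 close to OR52W1, had 16 reads (9.1 to 26.0) in the overexpressing library and no gene-end summit in the control library. LBR and KDM1A, a lamin receptor and a histone demethylase that act on olfactory receptor chromatin in mouse, had 23 (14.6 to 34.5) and 18 (10.7 to 28.4) reads in the overexpressing library and 10 (4.8 to 18.4) and 13 (6.9 to 22.2) in the control library. OMP, CNGA2, RTP1, LHX2 and EMX2 had no gene-end summit in either library.

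Receptor promoters were lower in G+C than those of other genes, and among the other genes gene-end summits were less frequent at low G+C. Of the 168 receptor genes 135 (80.4%) had a promoter window in the RefSeq table, with a median G+C of 37.0% (24.3 to 57.0), against 62.5% over 15678 other protein-coding genes. The median window held 1 CpG in receptor genes and 22 in the others. Among genes other than olfactory receptors with a promoter under 40% G+C, 19.0% of 630 (16.2 to 22.3) had a gene-end summit in the overexpressing library and 22.4% (19.3 to 25.8) in the control library. Receptor genes with such promoters had one at 1 of 87 (1.15%, 0.20 to 6.23) and 2 of 87 (2.30%, 0.63 to 8.0) in the overexpression and control libraries. At 45 to 50% G+C the non-receptor genes had 45.9% and 45.8%, and the receptor genes 1 of 11 and 2 of 11. The receptor genes had 0 of 32 and 2 of 32 at 40 to 45%, and 0 of 5 in both libraries at 50 to 60%. The Wilson limit for 0 of 5 was 43.45%, so bins this small cannot show whether the share of receptor genes rose with G+C. OR10Q1, OR10S1, OR51D1, OR4X1 and OR10W1, which had a gene-end summit, had no promoter window and are left out of these shares. The part of base composition in the low counts was not tested.

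**Figure D5:**
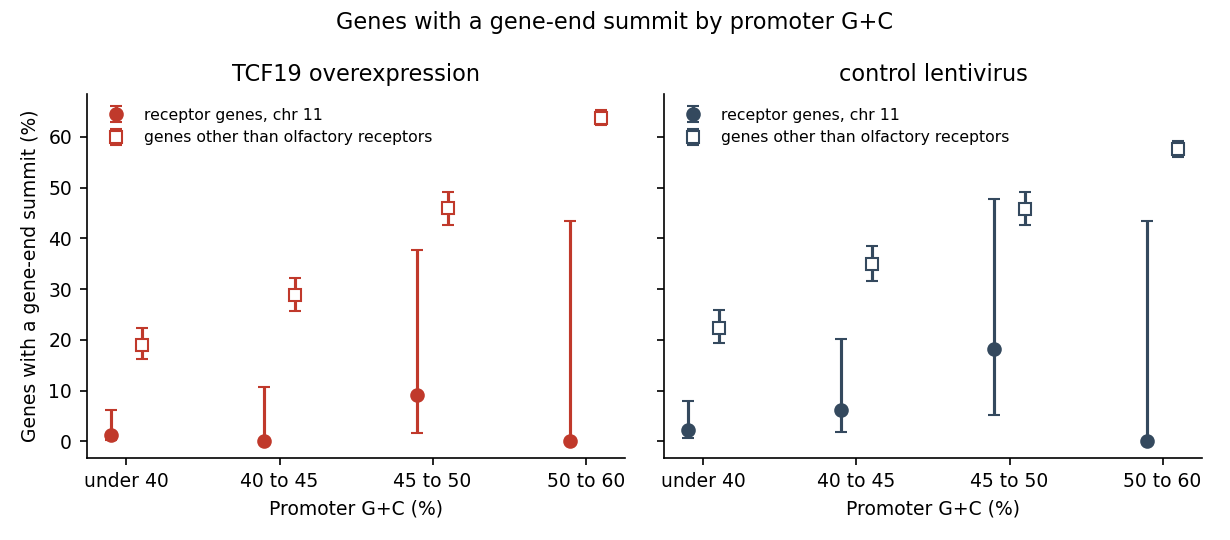
Points show the percentage of genes with a gene-end summit by G+C of the promoter window, for receptor genes of chromosome 11 (filled) and genes other than olfactory receptors (open), with Wilson 95% intervals, in the overexpressing library (left panel) and the control library (right panel). Under 40% G+C the receptor genes stand at 1.15% and 2.30%, and the other genes at 19.0% and 22.4%.

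The homeodomain core TAATTA, the same on both strands, occurred in the promoter window of 34 of 135 receptor genes (25.2%) and of 4.325% of the other protein-coding genes with a window. For receptor genes of other chromosomes it was 21.5% of 177. The letters of TAATTA are frequent in sequence low in G+C. Of the receptor genes with a gene-end summit, 6 had a promoter window, and it held TAATTA in OR52W1 and OR52B6. A match describes the letters and is not a bound site.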

How the data were processed

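ChIP-seq with a TCF19 antibody gave 1 library of TCF19-overexpressing and 1 of control Ishikawa cells; groups came from the genotype label. Per the submitters' processing notes, reads were aligned to hg38 by BWA 0.7.12 and MACS2 2.1.0 called the peaks. The sources used here do not state parameters, duplicate handling or an input library. The deposited files give per summit a score, a fold enrichment (a ratio), a −log10 p-value and a −log10 q-value. These are the authors' values; the deposited q-values start at −log10 1.3011. The deposited score was not used. Read totals were not part of the files.

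Summits were placed at the interval start plus the deposited offset, counted from 1. Whole-read pileups were solved from the deposited fold, (pileup + 1) / (background + 1), and the Poisson −log10 p-value (misfit at most 0.001), at 99.996% of overexpression and 99.997% of control summits. The lowest background, 1.429 and 1.582 reads, is the floor set by the genome average and stands for depth. Genes and promoters came from RefSeq GRCh38.p14; rows outside a chromosome's own sorted block were not placed. Wilson, Clopper-Pearson conditional and exact Poisson intervals (95%) were computed with Python 3.11.15, pandas 2.3.3, NumPy 2.4.6 and SciPy 1.17.1, and the functions were tested on simulated data. With 1 library per group there is no spread between cultures and no test. Alternatives changed the window, gene end, thresholds, list length, cluster gap, overlap and pairing. Genes were named by whether their ends had a summit in both libraries, in either alone, or were on the listed pathway or inside clusters; the control-alone rule allowed 6 of highest fold, and all 7 are given because 4 tied, a choice made after seeing the values. Interior and top cluster summits were also picked afterwards. The members and lists were chosen with earlier results of these data known.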

Additional observations from a re-analysis of the deposited data

How the results depend on the processing

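Of the alternatives to the 9 results, 49 of 68 values stayed within the interval of the reported value, or within 1.5 times a count. A change of direction could be scored only for the ratio of cluster summits, whose reported interval excluded 1. Its alternatives all stayed below 1. For the other results a change of direction could not be scored. With a 500 bp window, gene-end summits occurred at 2 receptor genes in the overexpressing library and at 1 in both, and over all genes the shares were 55.1% and 42.7% in the overexpression and control libraries. With 2000 bp, 23 had one in the control library and 6 in both, and over all genes the shares were 73.0% and 65.5% in the overexpression and control libraries. Counting the gene start alone, which left out genes with no strand, gave 1 in the overexpressing library, 4 in the control library and 1 in both. At a −log10 q of at least 2, 1 gene had one in both. At a fold of at least 4 the counts were 0, 1 and 0 in the overexpressing library, the control library and both, over all genes 39.5% and 23.2%, and the ratio of gene ends to between genes was 0.0 in the overexpressing library and 0.0952 in the control library; the ratio of cluster summits, overexpression to control, was 0.673. The overlap of overexpression cluster intervals was 66.3% at −log10 q of at least 2, 55.2% at fold of at least 4, 64.0% with lists of equal length (where over all genes 65.2% and 34.6% had a gene-end summit) and 65.0% with an overlap of at least 50% of each interval, where that of control intervals was 32.5%. The alternatives that took sequence between protein-coding genes only, or windows without other genes' ends, were chosen after seeing the data. The cause of these shifts was not tested, other than that stricter thresholds leave fewer summits. No paired analysis was possible because each group had 1 library. With 4 and 10 gene-end summits, ratios within the printed intervals cannot be told apart.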
